A study of Mus musculus with 316 samples.

Results

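Capillary endothelial cells of the mouse hippocampus were chosen by measured marker levels, as the cells whose reads carried the capillary genes of a fixed rule and almost none of its arterial or venous genes. A gene counted in a cell at 10 or more CPM, its reads scaled to a common total per cell. Members had at most 1 of 6 arterial genes (Gkn3, Bmx, Sema3g, Cytl1, Fbln5, Mgp), at most 1 of 6 venous genes (Nr2f2, Lrg1, Il1r1, Vwf, Ch25h, Icam1) and at least 3 of 6 capillary genes (Mfsd2a, Cxcl12, Hmcn1, Rgcc, Slc16a1, Spock2). Of 316 sequenced cells, 280 had at least 1000 detected genes, and 115 of these (41.1%) met the rule. The other 165 cells were 58 arterial cells (3 or more arterial genes, at most 1 venous), 48 venous cells (the reverse) and 59 cells of neither class.

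The study sequenced individual brain endothelial cells from male C57BL/6 mice, young (3 months) or aged (19 months). Hippocampi of 4 mice were pooled, dissociated with a commercial kit and sorted by flow cytometry, giving 2 young and 2 aged pools. Each pool was sorted into a pos and a neg gate. The labels used here do not name the gate marker, and the title of the series names VCAM1, an adhesion receptor for leukocytes on inflamed endothelium. No treatment or genetic change is given for any group. The pool is the replicate throughout: the gates and classes of 1 pool share its mice, and cells of a pool are not independent animals. With 2 pools an age, p-values measure the spread between 4 pools.

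Capillaries are the narrowest vessels of the brain and carry most of the blood-brain barrier. Their endothelial cells are joined by tight junctions, hold vesicle traffic low and express transporters for glucose, amino acids, thyroid hormone and lipids. Along the vessel, expression changes by degrees from arterioles through capillaries to venules, and leukocytes attach mainly in venules, where adhesion receptors are displayed. Of the genes in the rule, Mfsd2a transports lysophospholipids carrying docosahexaenoic acid and restrains transcytosis, Slc16a1 carries lactate and other monocarboxylates, and Cxcl12 encodes a chemokine.

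The rule's own genes are given as a description, since they chose the cells. Cxcl12 and Spock2 each reached 10 CPM in 104 of 115 capillary cells (90.4%), Rgcc in 94 (81.7%), Mfsd2a in 67 (58.3%), Hmcn1 in 63 (54.8%) and Slc16a1 in 62 (53.9%). Of the 115 cells, 23 had 3 capillary genes, 44 had 4, 39 had 5 and 9 had all 6. Just outside the threshold, 6 cells with at most 1 arterial and 1 venous gene had 2 capillary genes. A further 38 cells with 3 or more capillary genes were outside the class through their arterial or venous genes, among them 13 pos-gate and 1 neg-gate venous cells. Vwf, a clotting protein of larger vessels, was the rule gene of another segment that capillary cells carried most often, in 30 of 115 cells (26.1%). Slc16a1 was not restricted to the class and reached 10 CPM in 24 of 48 venous cells (50%).

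All 18 pan-endothelial markers were listed and tested. The 18 pan-endothelial markers, among them Pecam1, Cdh5, Cldn5 and Tie1, together made 44148 to 46548 CPM in the summed capillary cells of the 4 pools, against 33236 to 39207 CPM in the other cells. Gene by gene, 9 of the 18 were above 0 with a median log2 difference of 0.04, and Itm2a made up much of the gap in the sums, at 11697 ± 1998 CPM against 6509 ± 1012 CPM (SD, n = 4 pools). Pericyte markers, of which 2 of 10 are listed in the table, summed to 0 to 41.6 CPM in capillary cells and 6.58 to 62.9 CPM in the others. Astrocyte markers (4 of 8 listed) summed to 62.5 to 610 CPM against 50.4 to 169 CPM, and microglial markers (10 of 10 listed) to 58.0 to 153 CPM against 69.9 to 169 CPM. Of the neuronal, erythrocyte and fibroblast markers, 0 are listed, and their part in the results was not tested.

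Capillary cells came almost entirely from the neg gate. In the pos gate, they were 4 of 42 cells in young pool 1 (9.52%), 1 of 45 in young pool 2 (2.22%), 2 of 21 in aged pool 1 (9.52%) and 2 of 37 in aged pool 2 (5.41%). In the neg gate of the same pools, they were 28 of 38 (73.7%), 31 of 40 (77.5%), 16 of 22 (72.7%) and 31 of 35 cells (88.6%). The gates did not overlap, and the order was the same in 4 of 4 pools. The mean share was 6.67% ± 3.54 (SD, n = 4 pools) in the pos gate and 78.1% ± 7.27 in the neg gate, a difference of -71.5 percentage points (p = 0.0286 by a two-sided exact permutation of the 8 pool values, which is as low as 4 against 4 can go). Adjusted for multiple tests, this p was 0.0429 over the 3 tests over pools set in the design and 0.0714 over the 5 such p-values computed, so whether it passes 0.05 depends on the family. Exchanging gates only within pools gave p = 0.125, the smallest that 4 pairs allow.

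**Figure D1:**
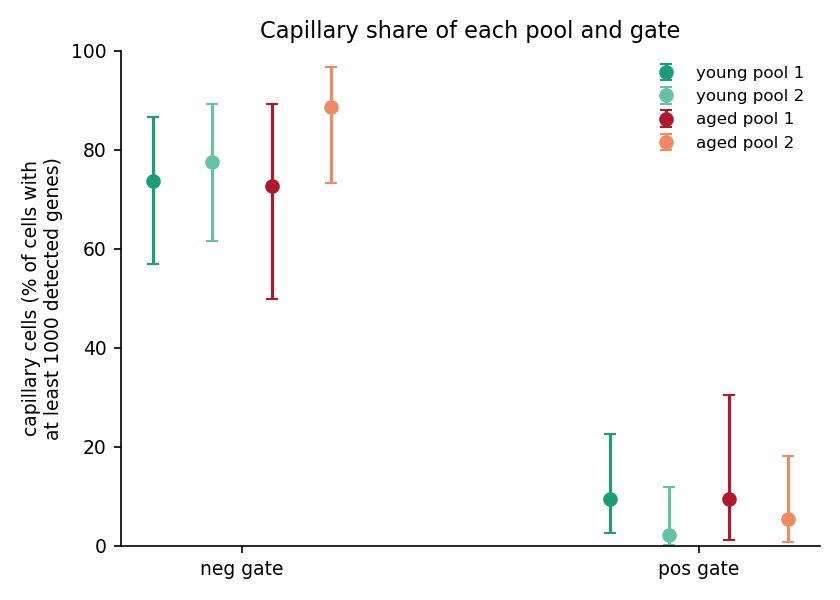
Share of cells (percent) that met the capillary rule in each pool and gate, among cells with at least 1000 detected genes; points are pools and bars are exact binomial 95% intervals of each share, which cover counting error only. The 4 pos-gate values lie between 2.22% and 9.52%, and the 4 neg-gate values between 72.7% and 88.6%.

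The share was similar in size at both ages, without a test, since 2 pools against 2 cannot go below p = 0.333. In the neg gate, 59 of 78 young cells (75.6%) and 47 of 57 aged cells (82.5%) were capillary. In the pos gate, the values were 5 of 87 (5.75%) and 4 of 58 (6.90%). The gate sets how many cells of each kind were sequenced, so these are shares of sorted cells, not of the tissue. Of the capillary cells, 106 were from the neg gate and 9 from the pos gate, whereas only 17.6% of the other cells were from the neg gate. Class and gate therefore largely coincide, and comparisons of capillary with other cells carry the gate with them.

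Vcam1, which was not in the rule, was nearly absent from capillary cells. A Vcam1 read was present in 4 of 106 neg-gate capillary cells (3.77%, exact binomial 95% interval 1.04 to 9.38%) and in 2 of 9 pos-gate capillary cells (22.2%, interval 2.81 to 60.01%). In the pos gate, a read was present in 39 of 50 arterial cells (78.0%), 28 of 46 venous cells (60.9%) and 19 of 40 remaining cells (47.5%). In the neg gate, it was present in 3 of 8 arterial and 1 of 2 venous cells, but in only 1 of 19 remaining cells (5.26%). Rare Vcam1 reads were thus not particular to capillary cells within the neg gate. These intervals cover counting error only. Median reads per cell were 514716 in neg-gate and 609202 in pos-gate capillary cells, and 488658 in pos-gate arterial cells.

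The reads behind those cells were few. In the neg gate, the 4 positive capillary cells held 1 read in young pool 1 and 8 reads in young pool 2, and none reached 10 CPM. In the pos gate, 1 cell of aged pool 1 held 4151 reads (6486 CPM) and 1 cell of aged pool 2 held 296 reads (871 CPM). The remaining 7 pos-gate capillary cells held no Vcam1 read, including all 5 of the young pools. Averaged over pools, the share was 25.0% ± 28.9 (SD, n = 4) in the pos gate and 3.31% ± 4.57 in the neg gate, which did not differ beyond the spread between pools (two-sided exact permutation test, p = 0.429, adjusted 0.429 over 3 tests; higher in the pos gate in 2 of 4 pools). The pos-gate values rest on 1 to 4 cells a pool.

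**Figure D2:**
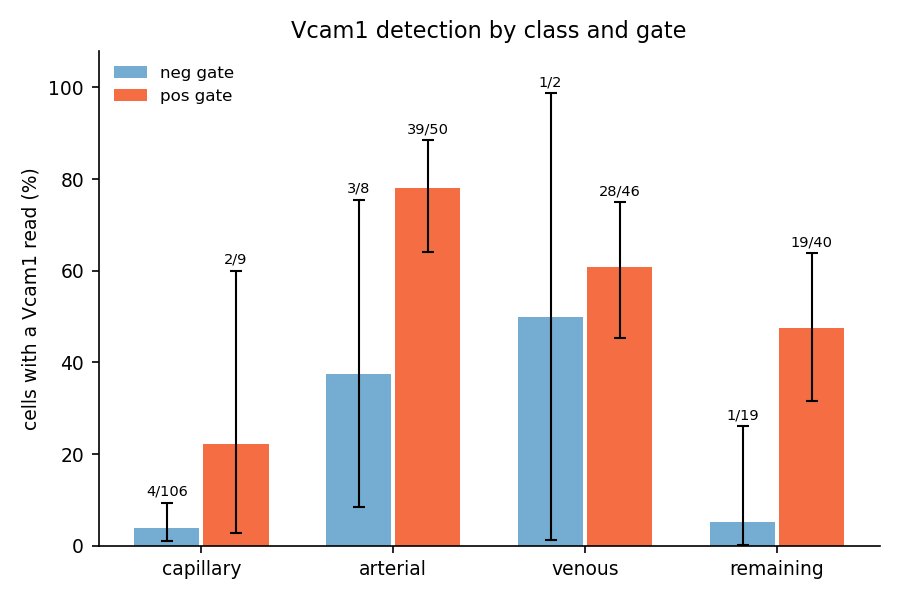
Percent of cells with at least 1 Vcam1 read in the capillary, arterial, venous and remaining cells of each gate, as bars with exact binomial 95% intervals and the cell counts above. Neg-gate capillary cells are at 3.77% and pos-gate arterial cells at 78.0%; the groups hold 2 to 106 cells.

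In the summed reads of each class and pool, Vcam1 (GRCm38 chromosome 3, 116109949 to 116129688, minus strand) stood at 0.0488 and 0.489 CPM in the young and at 563 and 17.2 CPM in the aged capillary cells. The other cells stood at 593, 674, 1678 and 2111 CPM in young pools 1 and 2 and aged pools 1 and 2. The groups did not overlap, but 93.2% of the capillary reads came from the cell of aged pool 1 with 4151 reads. The log2 difference of -6.98 (SE 1.15) had an adjusted p of 0.0693 in edgeR's quasi-likelihood test and did not pass.

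Capillary cells had fewer detected genes than the other cells of the same pools. The mean was 1675, 1682, 1725 and 1673 genes in the capillary cells of young pools 1 and 2 and aged pools 1 and 2, and 2006, 2054, 1941 and 1876 in the other cells. The difference was -281 genes (1689 ± 24.2 against 1969 ± 77.6, SD, n = 4 pools; two-sided exact permutation test, p = 0.0286, adjusted 0.0429 over 3 tests and 0.0714 over 5). It was in the same direction in 4 of 4 pools, and the within-pool exchange gave p = 0.125. Reads per cell were 519369 ± 96152 against 561210 ± 127810 (exact permutation p = 0.571). They were lower in capillary cells in 4 of 4 pools, and the within-pool exchange gave p = 0.125, the smallest possible for 4 pairs, for reads as well. With each cell thinned to 289993 reads, which kept 104 capillary and 148 other cells, the means were 1646 ± 122 and 1890 ± 70.4 genes (exact permutation p = 0.0571). Among neg-gate cells only, the difference was -190 genes (exact permutation p = 0.0857). Detection enters the rule, because a cell with fewer detected genes can carry fewer arterial or venous genes, so this difference is not independent of how the cells were chosen.

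The genes of capillary cells were next set against those of all other cells, with the reads of a class summed in each pool (7187673 to 20306035 reads in a capillary sum, 10788327 to 35357071 in the others). These classes were drawn with genes of the same cells, so the calls below describe the classes and are no independent test of them. Of 10509 tested genes outside the rule, 1 was higher in capillary cells (0.00952%) and 16 were lower (0.152%) at an adjusted p under 0.05, and 1236 had an unadjusted p under 0.05. Without overlap between the 4 capillary and the 4 other sums, 198 genes were higher (1.88%) and 517 lower (4.92%). The median log2 difference over all genes was -0.17, and 42.7% of genes were above 0. The calls are fragile: leaving out any 1 of the 4 pools gave 0 calls, the pool as a block left 3 (Ptgis, Sat1 and Tgm2), and DESeq2 called 1588, with all 17 among them.

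Sparcl1 was the gene higher in capillary cells. It encodes a secreted matrix protein related to osteonectin. It stood at 3002, 2930 CPM in the young and 3240, 2492 CPM in the aged capillary sums, and at 1498, 1328, 1204 and 1220 CPM in the other cells (log2 difference 1.16, SE 0.13, adjusted p = 0.0282). Every capillary pool was above every other sum, and 109 of 115 capillary cells had a read. By class, Sparcl1 averaged 3057 CPM in capillary, 525 CPM in arterial and 1588 CPM in venous sums. Against venous cells alone it did not pass (log2 difference 0.96, SE 0.31, edgeR adjusted p = 0.404). Among neg-gate cells only, where the gate is held fixed, the log2 difference was 0.63 (edgeR, unadjusted p = 0.00682). That is below the all-gene median of 0.94 in that comparison. Medians of gene lists there differed, at 0.17 for pan-endothelial, 0.47 for matrix and 1.40 for lipid handling genes. Sparcl1 lies on chromosome 5, 104079111 to 104113733, minus strand.

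Further genes high in capillary cells fell short of the test, and the 4 described here had adjusted p from 0.0554 to 0.0646. Car4, a membrane-bound carbonic anhydrase of brain capillaries, stood at 2617, 2274, 1860 and 2475 CPM in the capillary sums and at 1327, 880, 709 and 454 CPM in the others (log2 difference 1.52, SE 0.22). Itga6, the integrin subunit that binds laminin of the basement membrane, stood at 336, 715, 588 and 489 CPM against 118, 142, 182 and 146 CPM (1.87, SE 0.28). Igf1r, the receptor of insulin-like growth factor 1, stood at 615, 681, 320 and 434 CPM against 163, 211, 181 and 120 CPM (1.56, SE 0.23). Tmem204, an endothelial membrane protein, had a log2 difference of 1.12 (SE 0.18). For each of these 4 genes the capillary and other sums did not overlap. Among neg-gate cells, the median was 0.94 over all genes and 0.17 over the pan-endothelial list. The log2 differences there were 0.88 for Tmem204, 0.94 for Car4, 1.33 for Igf1r and 2.42 for Itga6. Those of Tmem204 and Car4 did not exceed the all-gene median. Among pos-gate cells, with 9 capillary cells, Car4 was at -0.97 and Tmem204 at -0.0044. Tmem204 overlaps Ift140, and the counting is not stated to use strand.

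Among the genes lower in capillary cells, some had hardly a read there. Ptgis, prostacyclin synthase, which makes a vasodilator, had 1 read in the 115 capillary cells, whereas the other cells stood at 132, 197, 210 and 99.5 CPM and 37 of 165 had a read (adjusted p = 0.013, 0.0182 with the pool as a block). Fstl1 and Pi16, both secreted proteins, had 0 reads in capillary cells, which allows up to 2.61% of capillary cells with a read. Fstl1 stood at 75.4, 181, 106 and 62.5 CPM and Pi16 at 79.8, 116, 125 and 70 CPM in the other cells. Their mean CPM in the other cells was 2171-fold and 2000-fold a floor of 3 counts over the capillary group. This ratio counts reads, which come from few cells, and is no bound on the difference over cells. Pi16 rested on 15 cells, and 26.8% of its reads came from 1 of them. Ptgs2, the inducible cyclooxygenase, had 1 capillary read, and 40.0% of its reads in the other cells came from 1 cell. Igfbp4, an IGF-binding protein, had a read in 3 capillary and 42 other cells. Near-absence was not particular to capillary cells. In venous sums, Pi16 averaged 0, Igfbp4 0.593 and Fstl1 8.45 CPM, against 287, 737 and 236 CPM in arterial sums. Ptgs2 was mainly venous (410 CPM, against 13.6 arterial), and Ptgis was read in both (70.2 venous and 225 arterial CPM).

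Sat1, which acetylates polyamines, stood at 243, 322, 200 and 164 CPM in capillary sums and at 1167, 1150, 627 and 817 CPM in the others (log2 difference -2.01, SE 0.19, adjusted p = 0.0117). Tgm2, a transglutaminase that crosslinks matrix, stood at 273, 239, 311 and 432 CPM against 1103, 860, 888 and 1581 CPM (-1.84, SE 0.24, adjusted p = 0.0394). Both passed with the pool as a block as well (adjusted p = 0.0311 and 0.0242). Tm4sf1, a membrane protein of endothelial nanopodia, stood at 1267, 1068, 1152 and 842 CPM against 2426, 2876, 2624 and 2445 CPM (-1.26, SE 0.15, adjusted p = 0.0322). In these 3 genes every capillary sum was below every other sum. Tgm2 had a read in 43 of 115 capillary cells. Sat1 and Tgm2 averaged more in both arterial (1497 and 543 CPM) and venous sums (717 and 1909 CPM). Tm4sf1 averaged 4702 CPM in arterial but 903 CPM in venous sums, so it was not lower than in venous cells. Tgm2 overlaps Rprd1b.

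Eln, the elastin of larger vessel walls, stood at 4.66 to 14.1 CPM in capillary sums against 65.0 to 322 CPM (adjusted p = 0.0361). Tmem176b, a membrane protein, stood at 24.8 to 150 CPM against 203 to 461 CPM (adjusted p = 0.0322). Its log2 difference was 0.75 among neg-gate cells, beside the all-gene median of 0.94 there. Zyx, a focal adhesion protein, Cpq, a carboxypeptidase, and Col18a1, the collagen from which endostatin is cut, were at 0 in both aged capillary sums and had reads in both young ones. Col18a1 averaged 0 CPM in venous sums as well, and 321 CPM in arterial sums. By age, H2-Q6, a class Ib histocompatibility gene, went the other way, with 0.0488 and 0 CPM in the young and 90.4 and 84.3 CPM in the aged capillary sums. Zyx, Cpq, Col18a1 and H2-Q6 had reads in 3 to 8 capillary cells, and with the pool as a block their adjusted p ran from 0.651 to 0.87. H2-Q6 also has close paralogs among which reads may be split.

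Holding the gate fixed left few other cells: 29 neg-gate cells outside the class, 10 and 9 in the young and 6 and 4 in the aged pools, against 106 capillary cells. In that comparison 0 of 9227 genes were called by edgeR, with 1170 at an unadjusted p under 0.05. Of the 17 called genes, 13 could be tested there, 12 had the same direction and 3 had an unadjusted p under 0.05 (Sparcl1, Fstl1 and Tm4sf1). Sat1 had a log2 difference of -0.68 and Tgm2 of -0.52. The median over all genes was 0.94 there, with other sums of 4 to 10 cells. It was 0.17 over the pan-endothelial list and 1.40 over the lipid handling list. The cause of these medians was not tested.

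**Figure D3:**
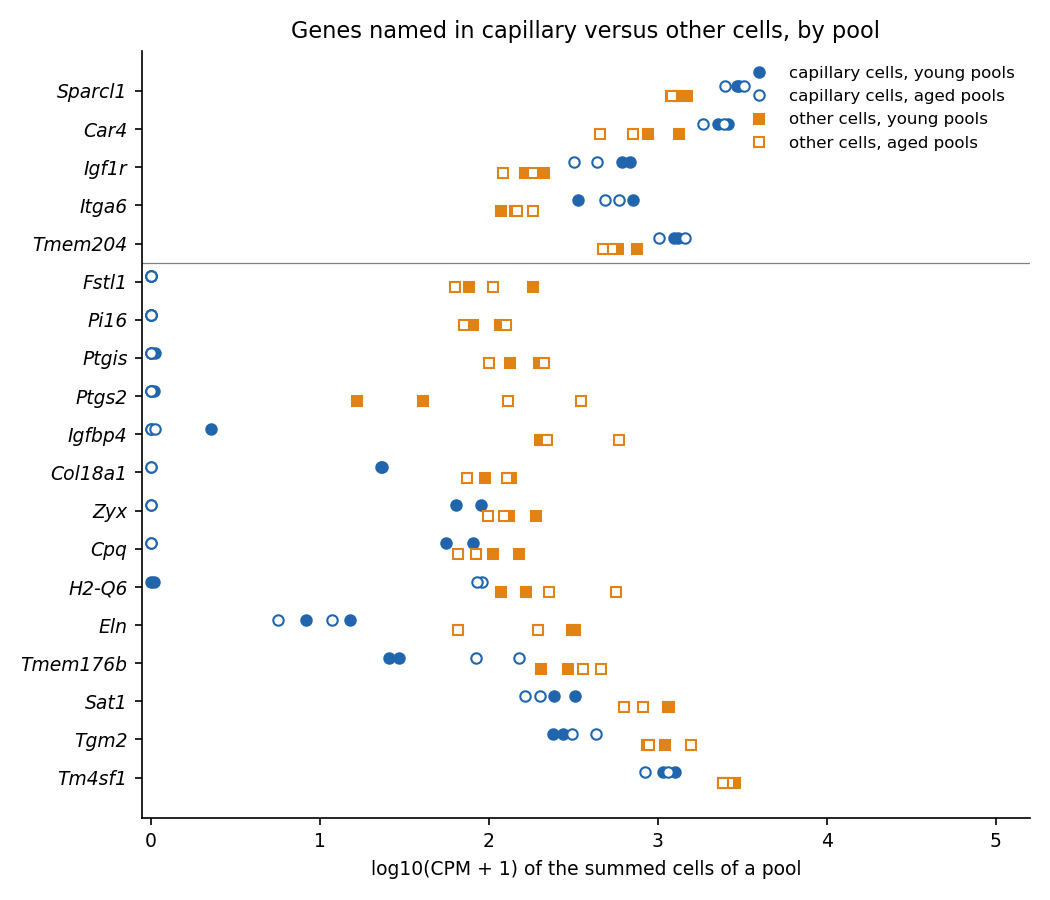
Level, as log10 of CPM + 1, of named genes in the summed capillary cells (circles) and the summed other cells (squares) of each pool; each symbol is 1 pool, filled for young and open for aged. Sparcl1 and Car4 are above and Sat1, Tgm2 and Tm4sf1 below in the capillary sums of all 4 pools.

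The barrier genes were described as lists, by counts and medians beside the -0.17 of all tested genes. Of 29 barrier transporters, 23 were above 0 with a median log2 difference of 0.37, and 0 passed the test. Slc2a1, the glucose transporter of the barrier, was high in both classes, at 9665, 7782, 8531 and 7797 CPM in capillary sums and 9819, 9928, 9204 and 8279 CPM in the others (-0.14, SE 0.11). Slco1a4, an organic anion transporter, stood at 2954 to 3288 CPM against 1739 to 2394 CPM (0.65, SE 0.13, adjusted p = 0.124). Slco1c1, the thyroid hormone carrier, stood at 1864 to 2819 CPM against 675 to 1374 CPM (1.20, SE 0.30, adjusted p = 0.21). Slc7a5, the large neutral amino acid carrier, stood at 308 to 559 CPM against 23.9 to 205 CPM (1.93, SE 0.47, adjusted p = 0.198). The sums of the last 3 did not overlap. Within the neg gate, 24 of 29 transporters (82.8%) were above 0, against 70.8% of all genes. Their median was 0.51, beside 0.94 for all genes, 0.17 for pan-endothelial and 0.45 for junction genes there.

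Junction and vesicle genes were near the middle of the table. Of 15 tested junction genes, 10 were above 0 (median 0.25) and 0 passed. Cldn5, the main claudin of the barrier, stood at 5955 to 6842 CPM against 5003 to 5987 CPM (0.25, SE 0.11, adjusted p = 0.428), and Esam, an adhesion molecule of endothelial junctions, at 1929 to 2459 CPM against 1693 to 2317 CPM. Of 13 tested vesicle and transcytosis genes, 6 were above 0 (median -0.23) and 0 passed. Cav1, the main protein of caveolae, stood at 452, 360, 1151 and 840 CPM in capillary sums and at 1115, 1068, 1105 and 1391 CPM in the others (-0.88, SE 0.17, adjusted p = 0.115). Ptrf, which coats caveolae, stood at 1739 to 2733 CPM against 3503 to 4809 CPM (-0.84, SE 0.13, adjusted p = 0.0613). Within the neg gate, Ptrf was at 0.02. Fcgrt, the receptor that recycles immunoglobulin G, stood at 1037 to 1492 CPM against 659 to 858 CPM (0.79, SE 0.18, adjusted p = 0.159).

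Signalling and matrix lists held few calls. Of 24 tested Wnt and barrier-inducing genes, 14 were above 0 (median 0.05) and 0 passed. Nkd1, a feedback target of Wnt, stood at 264 to 586 CPM against 99.7 to 104 CPM (1.87, SE 0.31, adjusted p = 0.0693). Sox17, a transcription factor of arterial endothelium, stood at 625 to 833 CPM against 846 to 1531 CPM (-0.60, SE 0.19). Of 18 tested VEGF, angiopoietin and adrenomedullin genes, 8 were above 0 (median -0.05). Flt1, a VEGF receptor, stood at 2769 to 2991 CPM against 1861 to 2271 CPM (0.48, SE 0.11, adjusted p = 0.159). Of 14 tested Notch genes, 3 were above 0 (median -0.80), and Jag1, a Notch ligand, stood at 169, 154, 104 and 114 CPM against 554, 507, 543 and 266 CPM (-1.80, SE 0.27, adjusted p = 0.0566). Against arterial cells 3 of 13 Notch genes were above 0 (median -1.70), but against venous cells 11 of 13 were (median 0.28). Jag1 averaged 142 CPM in capillary, 963 CPM in arterial and 128 CPM in venous sums. Of 19 tested matrix genes, 11 were above 0 (median 0.39), with Sparcl1 called higher and Col18a1 called lower. Sparc, osteonectin itself, stood at 2412 to 3218 CPM against 982 to 2052 CPM (0.92, SE 0.15, adjusted p = 0.0737).

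Inflammatory and ribosomal lists had medians below that of all tested genes over all cells (-0.17 for all genes). Within the neg gate their medians were above 0, though below the 0.94 of all genes there. The share of ribosomal genes above 0 was 79.4% in that gate, against 70.8% of all genes. Of 17 tested adhesion and inflammation genes, 1 was above 0 (median -1.99), and Ptgs2 was called. Against venous cells 3 of 17 were above 0 (median -2.68), but against arterial cells 8 of 17 were (median -0.07). Within the neg gate, 6 of 11 were above 0, with a median of 0.24. Cx3cl1, a membrane-bound chemokine, stood at 141, 116, 387 and 114 CPM in capillary sums and 288 to 372 CPM in the others, with aged pool 1 apart. Of 110 tested ribosomal protein genes, 4 were above 0 (median -0.39), against 77 of 97 within the neg gate (median 0.30), and 0 passed. Of 14 tested mitochondrially encoded genes, 1 was above 0 (median -0.33), against 11 of 13 within the neg gate. The part of the gate in these lists was not tested.

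Few class I genes, which present peptides to T cells, were above 0 in capillary cells in either comparison. Of 24 class I and interferon genes, 6 were above 0 in the comparison of all cells (median -0.52, H2-Q6 called) and 6 of 24 within the neg gate (median -0.34). H2-D1 stood at 2158, 2627, 4353 and 3959 CPM against 4306, 4483, 4990 and 6381 CPM (-0.66, SE 0.13, adjusted p = 0.111). B2m, the light chain of class I, stood at 2260 to 2926 CPM against 3449 to 3591 CPM (-0.49, SE 0.12, adjusted p = 0.187). Ifitm3, an interferon-induced membrane protein, stood at 870 to 1207 CPM against 1695 to 2037 CPM (-0.92, SE 0.15, adjusted p = 0.0693). The sums of B2m and Ifitm3 did not overlap.

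**Figure D4:**
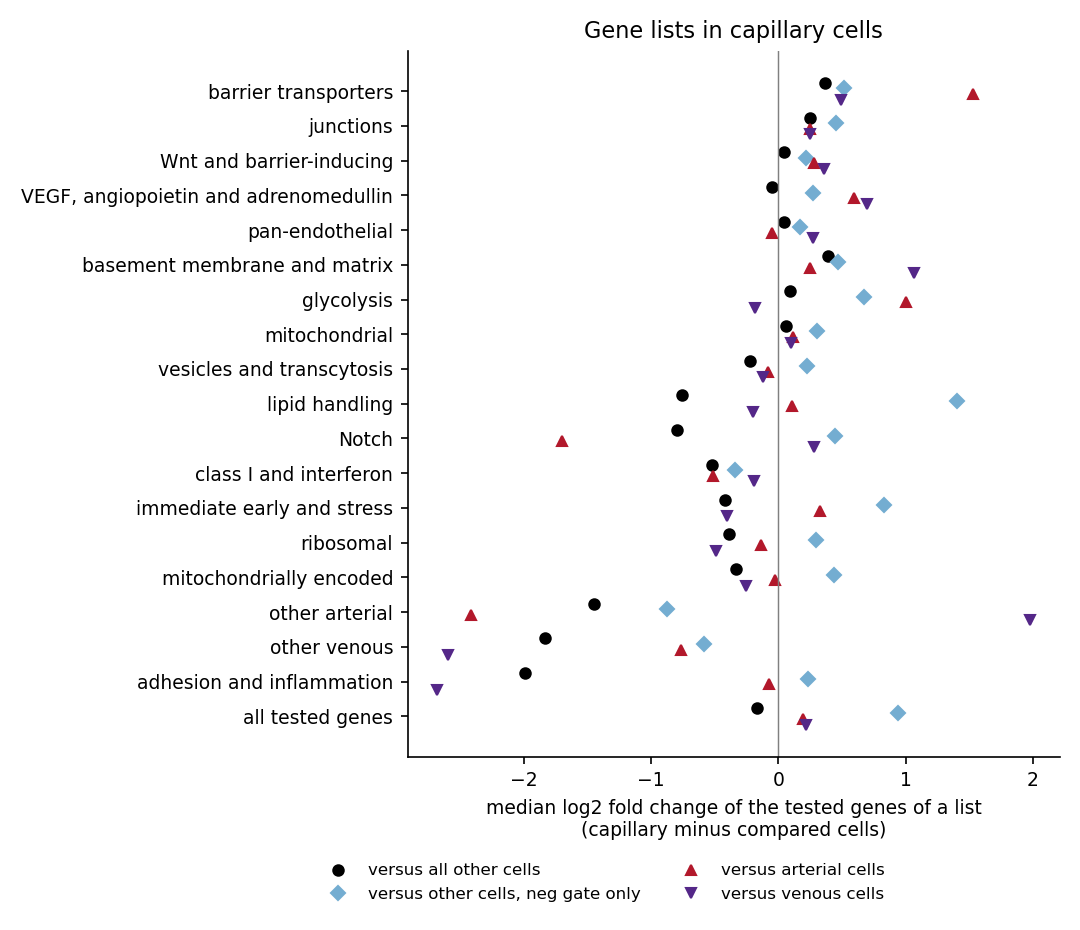
Median log2 difference, capillary minus other cells, of each gene list, against all other cells, other cells of the neg gate only, arterial cells and venous cells, with the median of all tested genes at the bottom (-0.17, 0.94, 0.20 and 0.21). The adhesion and inflammation list is at -1.99 against all other cells and 0.24 in the neg gate; barrier transporters are at 0.37 and 0.51.

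Against arterial cells, capillary cells differed in more genes. In a fit of all 4 classes, 24 of 9804 genes were higher (0.245%) and 20 lower (0.204%), with 860 at an unadjusted p under 0.05 and an all-gene median of 0.20. The rule drew this contrast too, so nothing is read from the counts. Pglyrp1, a peptidoglycan recognition protein, stood at 1740.5, 1863, 1857 and 1844 CPM in capillary sums and at 82.3, 151, 305 and 206 CPM in arterial sums (log2 difference 3.36, SE 0.36, adjusted p = 0.000111). Itm2a, a membrane protein of brain endothelium, stood at 12266 ± 2102 against 1482 ± 656 CPM (SD, n = 4; 3.03, SE 0.26, adjusted p = 8.91e-06). Both genes were high in venous sums as well, at 1374 CPM for Pglyrp1 and 10201 CPM for Itm2a. Sparcl1 had a log2 difference of 2.56 (SE 0.32, adjusted p = 0.00053), Fcgrt of 1.94 (SE 0.20, adjusted p = 8.4e-05) and Itga6 of 2.71 (SE 0.50, adjusted p = 0.016).

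Transporters were among the genes higher than in arterial cells: 4 of 29 passed, 23 were above 0 and the median was 1.53. Slco1a4 stood at 3277 ± 149 CPM in capillary and 1136 ± 335 CPM in arterial sums (1.53, SE 0.22, adjusted p = 0.00172). Car14, a carbonic anhydrase, and Clint1, a clathrin adaptor, had 0 arterial reads and reads in 13 and 17 capillary cells. They averaged more in venous sums (244 and 367 CPM) than in capillary sums (125 and 70.4 CPM). Ndnf, a secreted factor, had 4 arterial reads and stood at 373, 211, 199 and 232 CPM in capillary sums. Ttyh2, a chloride channel family member, had a read in 62 of 115 capillary cells and 1 of 58 arterial cells. In venous sums Ndnf averaged 199 CPM and Ttyh2 194 CPM, against 254 and 251 CPM in capillary sums. Car14 overlaps Aph1a.

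Clu, the chaperone clusterin, was lower than in arterial cells. It stood at 244, 41.3, 0.142 and 80.6 CPM in capillary and at 3500, 3874, 2842 and 4991 CPM in arterial sums (-5.68, SE 1.15, adjusted p = 0.0314), and 70.8% of the capillary reads came from 1 cell. Jag1 stood at 142 ± 32.9 against 963 ± 365 CPM (-2.78, SE 0.38, adjusted p = 0.00133), and Tm4sf1 at 1134 ± 186 against 4702 ± 607 CPM (-2.05, SE 0.25, adjusted p = 0.000352). Sdc1, a heparan sulfate proteoglycan, had 0 capillary reads and reads in 9 of 58 arterial cells. Ptgis had 1 capillary read, Olfml2a 5 and Igfbp4 22, and each had reads in 21 to 27 arterial cells. H2-D1 was lower in capillary cells as well (-0.83, SE 0.16, adjusted p = 0.0223). Leaving out 1 pool left 18 calls without young pool 1, 24 without aged pool 2 and 29 without young pool 2, and DESeq2 called 771.

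Against venous cells, 14 of 9804 genes were higher in capillary cells (0.143%) and 10 lower (0.102%), with 798 at an unadjusted p under 0.05 and an all-gene median of 0.21. Ly6c1, a surface antigen of endothelium, stood at 6130 ± 625 CPM in capillary and 2975 ± 391 CPM in venous sums (SD, n = 4; 1.05, SE 0.14, adjusted p = 0.00153), and Flt1 at 2989 ± 95.7 against 1719 ± 274 CPM (0.79, SE 0.15, adjusted p = 0.0304). Dpysl2, a microtubule-binding protein, stood at 606, 813, 1168 and 805 CPM against 141, 311, 198 and 375 CPM (1.72, SE 0.32, adjusted p = 0.0235). Alpl, the alkaline phosphatase of brain vessels, stood at 507, 439, 298 and 766 CPM against 0, 0.26, 11.7 and 0.162 CPM (7.92, SE 1.29, adjusted p = 0.0121). Rad54b, a DNA repair helicase, and Cdh13, a cadherin, had 0 venous reads and reads in 21 and 6 capillary cells, and Clu was called although its capillary and venous sums overlapped. Alpl and Cdh13 averaged more in arterial sums (1546 and 694 CPM) than in capillary sums (503 and 85.8 CPM). Rad54b averaged 135 CPM in arterial and 175 CPM in capillary sums.

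Among the genes lower than in venous cells, Tgm2 stood at 329 ± 89.3 CPM in capillary and 1909 ± 633 CPM in venous sums (-2.56, SE 0.31, adjusted p = 0.00101). Cebpd, a transcription factor of the acute phase, stood at 35.3 to 73.5 CPM against 136 to 1089 CPM (-3.34, SE 0.65, adjusted p = 0.0349). Apoe, the lipid carrier, stood at 1494 ± 624 against 3606 ± 965 CPM (-1.30, SE 0.25, adjusted p = 0.0336). The venous count fell to 7 without young pool 1, 9 without aged pool 2 and 13 without young pool 2, and DESeq2 called 709.

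Called against both arterial and venous cells were 7 genes, among them Cd9, Clu, Ifitm3, Ptgis, Tmem176b and Tmem204. These comparisons share the capillary sums. Tmem204 was higher in capillary cells against both (1.55, SE 0.28, adjusted p = 0.016 against arterial; 1.59, SE 0.29, adjusted p = 0.0228 against venous). Ifitm3, at 1049 ± 150 CPM in capillary, 1945 ± 206 in arterial and 1887 ± 282 in venous sums, was lower against both (adjusted p = 0.0113 and 0.0235). Clu was lower than in arterial and higher than in venous cells. Arterial and venous cells were mostly from the pos gate, with 8 and 2 cells in the neg gate, so class and gate cannot be told apart in these contrasts.

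**Figure D5:**
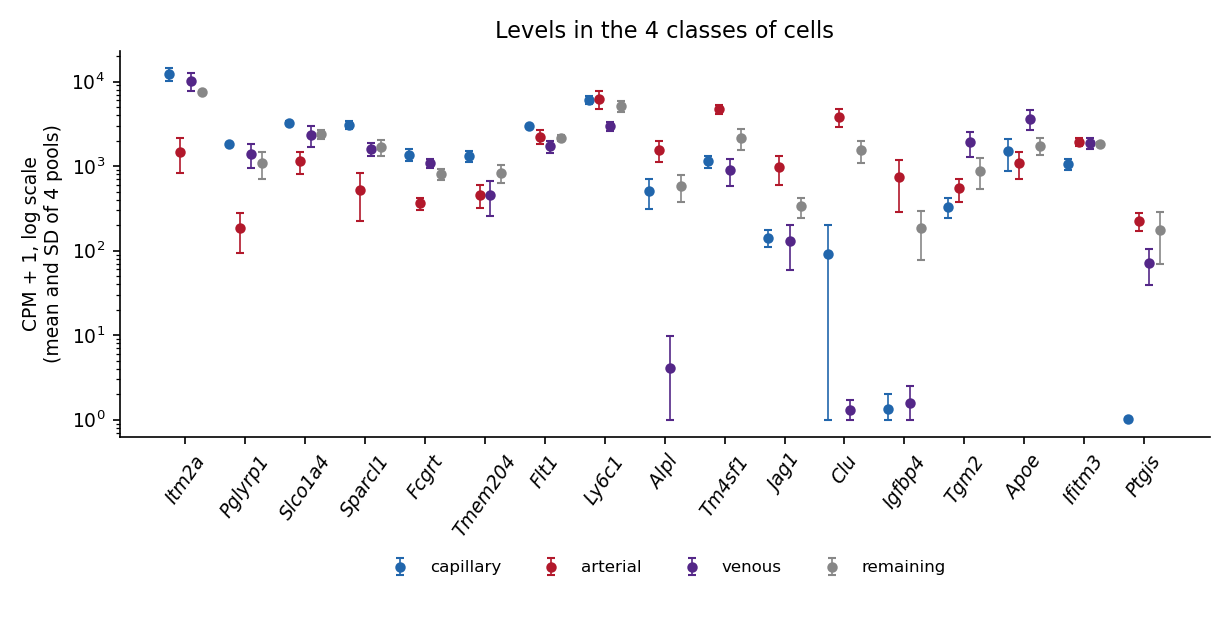
Mean level (CPM + 1, log axis) with SD over 4 pools of genes in capillary, arterial, venous and remaining cells. Itm2a is at 12266 CPM in capillary and 1482 CPM in arterial cells, and Ly6c1 at 6130 CPM in capillary and 2975 CPM in venous cells.

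Age was not used by the rule. Between the 2 aged and 2 young capillary sums, edgeR called 0 of 9059 genes (0%), with 561 at an unadjusted p under 0.05, limma called 0, and DESeq2 called 747 (314 higher and 433 lower in aged cells). The 6 genes with the smallest p among those that met the naming rule fell short, with an adjusted p of 0.771. Ctso, a lysosomal cathepsin, stood at 330 and 363 CPM in young and 51.0 and 49.7 CPM in aged capillary sums (log2 difference -2.78, SE 0.37), with reads in 26 of 64 and 6 of 51 cells. Sun1, which links the nuclear envelope to the cytoskeleton, stood at 101 and 87.9 against 490 and 415 CPM (2.26, SE 0.32), with reads in 10 of 64 and 16 of 51 cells. Selenop, a selenium carrier, stood at 4875 and 4158 against 2443 and 2392 CPM (-0.90, SE 0.17) and had reads in nearly every cell. Angpt2, an angiopoietin, and Tmem63a, an ion channel, stood near 0 in the young and at 92.7 to 166 and 87.3 to 134 CPM in the aged sums. Chka, choline kinase, stood at 231 and 54.1 against 0 and 0.176 CPM. Angpt2 rested on 4 aged cells and overlaps Mcph1, and Selenop overlaps Ccdc152.

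No class I gene passed the test between ages, and the members did not move in 1 direction. H2-D1 stood at 2191 and 2624 against 4420 and 3980 CPM (0.80, SE 0.19, edgeR adjusted p = 0.771), and H2-K1 at 829 and 1000 against 2008 and 1544 CPM (0.96, SE 0.24, adjusted p = 0.771). The log2 difference was 11.3 (SE 2.20) for H2-Q6, with reads in 1 of 64 young and 7 of 51 aged cells. It was 3.93 (SE 2.25) for H2-Q7, with reads in 4 young and 17 aged cells, and -0.00041 (SE 0.58) for H2-T23. B2m was at 0.15 (SE 0.20), Psmb8 and Psmb9, subunits of the immunoproteasome, at -0.02 (SE 0.46) and -0.05 (SE 0.78), and Tap1, a peptide transporter, at -1.62 (SE 1.14). Of 24 class I and interferon genes, 17 were above 0 with a median of 0.21, beside -0.04 for all genes and 48.4% above 0. Of 21 tested immediate early and stress genes, which respond to handling of cells as well as to stimuli, 17 were above 0 (median 0.96). Hspa1a, a heat shock protein with a near-identical copy, stood at 155 and 765 against 1162 and 2043 CPM, and Dusp1 at 696 and 703 against 1295 and 728 CPM. The part of dissociation in these values was not tested. Whether the age difference itself differs between capillary and other cells was tested by interaction, and edgeR called 0 of 10509 genes (595 at an unadjusted p under 0.05; DESeq2 911).

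The gates within capillary cells could hardly be compared. Only young pool 1 had a pos-gate sum of at least 3 capillary cells, and it had 4. In that contrast edgeR called 0 of 10080 genes (1673 at an unadjusted p under 0.05), limma called 0, DESeq2 called 3500, and edgeR with no filter on low counts called 89.

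Capillary cells differed in how many genes of the arteriolar and venular sides of the capillary bed they carried. Of 5 arteriolar-side genes (Tgfb2, Glul, Slc26a10, Lypd1, Ddc), 26 cells had 0 at 10 CPM, 49 had 1, 21 had 2, 14 had 3 and 5 had 4. Of 6 venular-side genes (Tfrc, Car4, Itm2a, Chn2, Slc38a5, Slc7a5), 6 cells had 1, 10 had 2, 42 had 3, 40 had 4, 12 had 5 and 5 had 6. Itm2a reached 10 CPM in 115 of 115 capillary cells, so each cell carried at least 1 venular-side gene. No ordering of the cells along the vessel was tested. Glul, glutamine synthetase, reached 10 CPM in 63 capillary cells (54.8%), Ddc in 47 (40.9%) and Slc26a10, an anion transporter family member, in 24 (20.9%). Slc26a10 overlaps B4galnt1.

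Across the 115 capillary cells, Spearman correlations of the pairs examined were modest or weak. The coefficient was 0.39 between Glul and Slc26a10, 0.39 between Car4 and Slc16a1 and 0.31 between Tfrc, the transferrin receptor, and Slc16a1. It was -0.33 between Glul and Car4, -0.36 between Glul and Slc16a1, -0.33 between Slc26a10 and Slc16a1 and -0.26 between Tfrc and Slc26a10. Mfsd2a and Slc16a1, both capillary genes of the rule, had a coefficient of 0.016. Slc16a1 and Mfsd2a are in the rule, so their values bear on which cells entered. The cells share pools and depth, and Glul itself had a coefficient of 0.27 with detected genes and 0.26 with reads, so these values are a description of the cells.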

How the data were processed

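The authors deposited raw read counts for 11463 genes in 316 cells, each sample being 1 cell. Bowtie 0.12.2, mm10 and GRCm38 are named, per the submitters' processing notes. How reads were counted, with which annotation, strand setting and filters, is not given in the sources used here. The table lists no gene with reads in fewer than 5 cells. Groups came from the labels' age, pool and gate. Coordinates and overlapping genes are from GENCODE M21 (GRCm38). The members and gene lists were chosen with earlier results of these data known.

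The counts of a class were added up within each pool and tested with edgeR 4.0.16 (R 4.3.3): filterByExpr, TMM, quasi-likelihood F test, Benjamini-Hochberg adjustment over all tested genes, calls at adjusted p under 0.05, with the 18 genes of the rule left out. limma 3.58.1 and DESeq2 1.42.0 were alternatives. Sums of fewer than 3 cells were left out of the class and gate fits. CPM of a sum is on its TMM-scaled library size. The scripts were tested on simulated data. Capillary cells held 12904 to 1330499 reads (median 519743). Shares and detected genes were compared over pools with exact permutation tests. The p-values over pools were adjusted in a family of 5 and then in the 3 of the design, and both are given.

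Named genes were up to 12 a direction (5 for arterial, venous, age and gate contrasts) with the largest fold among those called, at 32 or more CPM on average and with the same sign in 4 of 4 pools, without predicted genes, filled to 6 (or 3) by smallest p; besides Vcam1 and up to 4 members of a described list by mean CPM. Further called members of lists, and Tm4sf1 and Tgm2, were named after their values were seen. Pools pair gates and classes through shared mice: correlations of same-pool deviations were 0.00038 to 0.0085. The pool number goes with a barcode prefix and pairs no mice across ages. Some genes that met the naming rule are not reported here.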

Additional observations from a re-analysis of the deposited data

Results flagged for a closer look

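Of 119 sets of 4 pool values checked, 10 had a pool far from the other 3: the gap to its nearest value took up more of the whole range than Dixon's test allows. Chance gives about 1 in 20 such sets. In capillary cells, aged pool 1 was the highest for Vcam1 (563 CPM, from essentially 1 cell), Cx3cl1 (387 CPM), Dusp1 (1275 CPM) and Ece1, an endothelin-converting enzyme (858 CPM). That pool has the fewest capillary cells, 18. In the other cells, aged pool 2 was the highest for Cav1 (1391 CPM), H2-K1 (3353 CPM) and Igfbp4 (591 CPM) and the lowest for Jag1 (266 CPM). Young pool 1 was the highest for Apoe (2829 CPM), and young pool 2 the lowest for B2m (3449 CPM).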

How the results depend on the processing

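The number of genes called between capillary and other cells was 17. It was 33 with 50 CPM as the level that counts a gene in the rule, 30 with limma, 9 with cells thinned to equal reads, 3 with the pool as a block, 0 among neg-gate cells and 0 among pos-gate cells, 0 on leaving out each pool, and 1588 with DESeq2. Against arterial cells the 44 calls became 771 with DESeq2, and 18 to 41 on leaving out a pool; against venous cells the 24 became 709, and 7 to 21. With the pool as a block these counts were 43 and 21. For age, gate and the interaction the 0 calls became 747, 3500 and 911 with DESeq2, and for the gate 89 with no filter on low counts. The cause of these moves was not tested.

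The difference in capillary share kept its direction and an exact p of 0.0286 under stricter rules, and lost it by construction on leaving out a pool (-74.2 to -67.5 points, p = 0.1 with 3 pools against 3, exact permutation) or exchanging gates within pools (-71.5, exact p = 0.125). Detected genes differed by -245 thinned, -190 in the neg gate and -306 to -250 on leaving out a pool.

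Log2 differences of single genes between capillary and other cells changed sign among pos-gate cells for Car4 (-0.97), Tmem204 (-0.0044), Itm2a (-0.15), Cldn5 (-0.46), Flt1 (-0.45), Fcgrt (-0.26), Pltp (-0.26), Eno1 (-0.13), Ldha (-1.26), Esam (-0.96), Ctnnb1 (-0.79) and Plat (-0.12). Among neg-gate cells, where the median of all genes was 0.94, the sign differed for Glul (-0.83) and Tfrc (-0.37). It differed too for Tmem176b (0.75), Sox17 (0.023), Ptrf (0.0151), Apoe (0.10), Rpl4 (0.0591), mt-Co1 (0.24), Fn1 (0.33) and Dusp1 (0.28). All of these stayed below that median, which is not the same in every gene list. The cause of the sign changes was not tested. Ldha turned to -0.21 with 4 or more capillary genes. For age, B2m turned to -0.0443 among neg-gate cells and ran from -0.0249 to 0.30 on leaving out a pool, the lowest without aged pool 1. Ifitm3 turned to -0.051 with 4 or more capillary genes, -0.0178 with limma and -0.15 among neg-gate cells and ran from -0.16 (without aged pool 1) to 0.34. Of these only Tmem176b had passed the test between capillary and other cells.

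The pos gate holds 9 capillary cells and the neg gate 29 other cells, which limits every comparison within a gate. No paired analysis was possible for the gate contrast in capillary cells because 1 pool had a pos-gate sum of at least 3 cells.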
